A study of Mus musculus with 6 samples.

Results

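Mouse induced pluripotent stem cells (iPSCs), cells reprogrammed to a state like that of embryonic stem cells, were compared with and without serum response factor (SRF), for the genes that take up glucose and break it down to pyruvate and lactate. The genes described are 38 named members of this pathway: glucose carriers, the glycolytic enzymes and their isozymes, lactate dehydrogenases and lactate carriers, pyruvate dehydrogenase and its kinases, and the enzymes that run the pathway backwards. They were found by exact symbol among 24421 gene entries of the count table, and all 38 were present. Bulk RNA sequencing was done on 3 libraries of SRF KO iPSCs, which carry the deleted allele on both chromosomes (SRFΔ/Δ), and on 3 libraries of WT iPSCs, which carry the conditional allele (SRFf/f). The WT cells thus also carry the modified, still intact gene, and both kinds of cells were kept in medium with serum. Whether the replicates come from different clones, cultures or extractions is not stated in the labels, so the p-values measure the spread between these libraries, which may be technical.

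Glycolysis splits glucose into pyruvate in the cytosol and yields ATP without oxygen. The steps of hexokinase, phosphofructokinase and pyruvate kinase, are in effect irreversible and carry most of its control, and lactate dehydrogenase regenerates the NAD+ that the pathway needs. Pluripotent cells are known for a high rate of glycolysis even where oxygen is plentiful. SRF is a transcription factor best known for binding the CArG box at genes of the actin cytoskeleton and at immediate-early genes.

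Total counts per library were between 26321602 and 36680156. Levels are given as CPM, that is counts divided by the library's total after TMM (trimmed mean of M values) scaling and brought to 1 fixed total, and 3 counts, the upper limit that a count of 0 allows, equal 0.0828 to 0.117 CPM, a limit for counting error only. Srf itself was counted 113, 84 and 131 times in SRF KO against 1326, 765 and 1066 times in WT, and its level in SRF KO was 11.5% of that in WT (log2 fold change -3.12, SE 0.13, adjusted p = 8.1e-09). The labelled cell type was checked against 18 pluripotency markers. Their summed level was 7248 to 7359.6 CPM in SRF KO against 8486 to 9087 CPM in WT, and none was at 0. Markers of other cells were higher in SRF KO: 19 endoderm markers summed to 3317 to 3546 CPM against 414 to 437 CPM in WT, and 15 fibroblast markers to 1430.1 to 1743 CPM against 695 to 804 CPM. No marker of either list was at 0 in all 6 libraries, but Afp and Tcf21 never passed 3 counts. These marker sums move with every comparison given here, and their part in the results for glycolytic genes was not tested. In bulk RNA, fewer cells of a type and less RNA per cell cannot be told apart.

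Transcripts of the pathway were mostly lower in SRF KO from glucose entry to pyruvate. The 38 members together made up 1.46% to 1.54% of counts in SRF KO against 1.72% to 1.94% in WT, or 14549 to 15134 CPM against 17565 to 19476 CPM. Of the 36 members with enough counts to be tested, 25 were lower and 3 were higher at an adjusted p under 0.05 (edgeR quasi-likelihood test, Benjamini-Hochberg adjustment over all entries tested). Change was common among all genes. Of 14778 genes tested, 42.4% passed the same threshold, 21.3% lower and 21.2% higher, whereas of the members 77.8% passed, 69.4% lower and 8.33% higher. Those that were higher were Pfkfb4, Slc16a1 and Fbp2. The 8 that did not pass were Slc2a4, Pfkp, Pfkfb2, Pgam2, Eno2, Eno3, Pdhb and Fbp1, while Slc2a2 and Pck1 were too low to test.

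The groups were also compared library by library. In 27 members each SRF KO library lay under each WT library, which held for 26.5% of all genes. In 4 members each SRF KO library lay over each WT library, which held for 26.2% of all genes, and in 5 the groups overlapped. The median log2 fold change was -0.25 over the members and -0.01 over all genes. Many members are abundant, and abundant genes were more often called lower. Of 2259 genes with a mean of at least 100 CPM, 25.5% were lower and 15% higher, against 15 and 1 of the 18 members at that level. Among the 18 tested members under 100 CPM, 10 were lower and 2 were higher (55.6% and 11.1%, against 21.3% and 21.2% of all genes at any level). The size of the falls was ordinary, with a median of -0.40 over the 25 lower members and -0.38 over all genes called lower. Ldhb was the exception, since only 20 genes of the 3141 called lower fell by more.

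**Figure D1:**
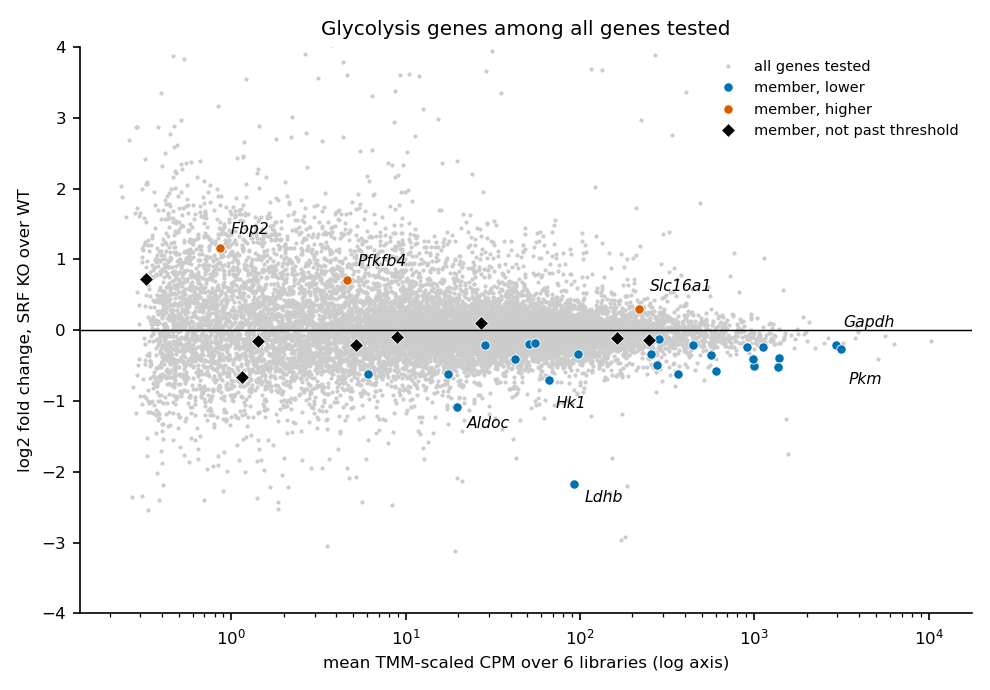
Each grey point is a gene tested, placed by its mean TMM-scaled CPM over the 6 libraries (log axis) and its log2 fold change, SRF KO over WT; members are coloured by their call, and 37 genes lie outside the plotted range. Most members lie slightly under 0, and 18 of the 36 tested have a mean of at least 100 CPM. Ldhb lies far below at -2.17, and Pfkfb4, Slc16a1 and Fbp2 lie above 0.

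The calls did not all have the same support. Of the 25 lower members, 20 were called in each of 13 fits, namely the one reported, those with each library left out, and those with another test, scaling, filter or block. The other 5 were Pfkm, Pfkfb3, Gapdh, Pdk1 and Pck2, whose falls were small and are given with those limits where the genes are described. All 3 higher members were called in each of the 13 fits. WT replicate 2 was the WT library nearest to SRF KO for much of the pathway: it was the lowest WT library for 24 of the 36 tested members, against 46.1% of all genes, and without it 28 members were lower in place of 25.

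**Figure D2:**
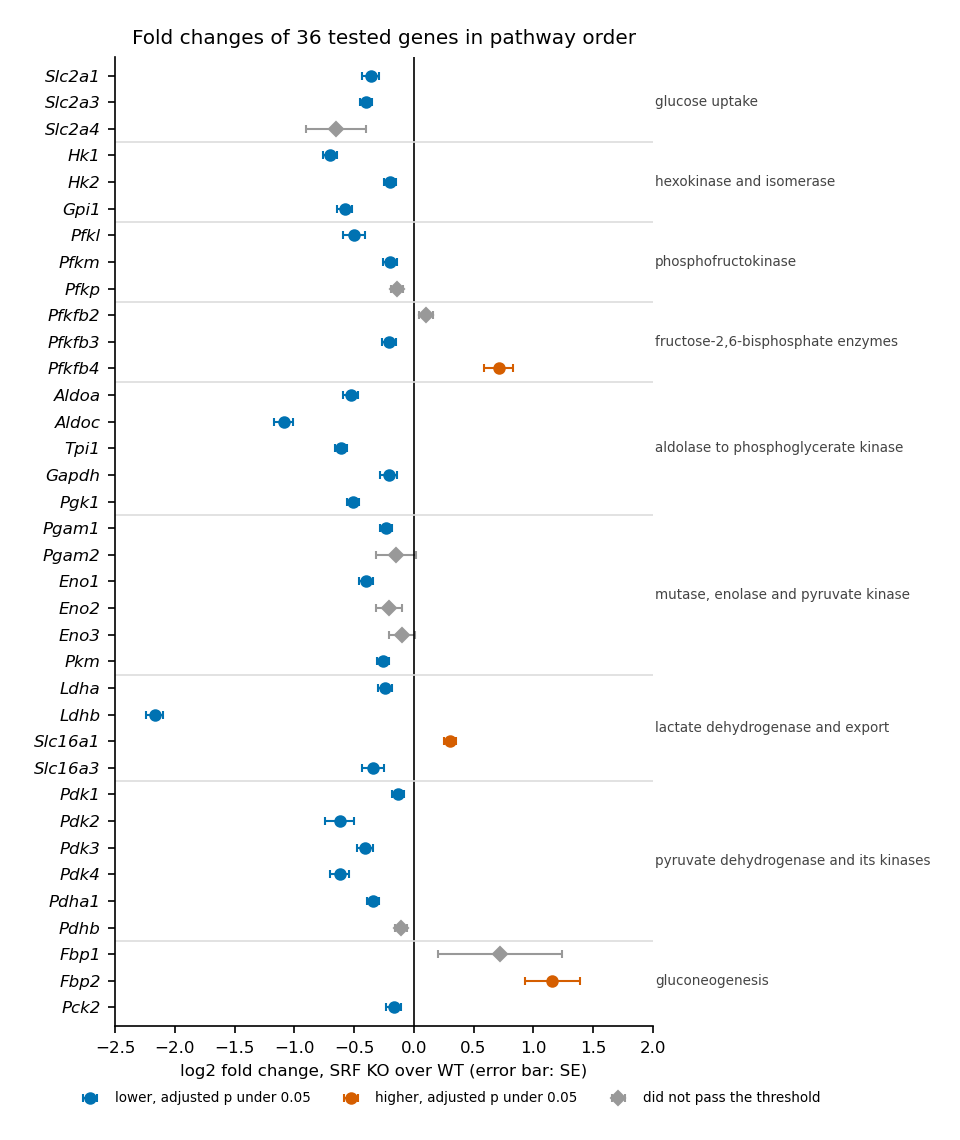
Log2 fold changes (SRF KO over WT) of the 36 tested members with their SE, in pathway order from glucose uptake to gluconeogenesis, coloured by call. The points lie left of 0 at nearly every step, and the exceptions stand at the fructose-2,6-bisphosphate enzymes, the lactate carrier Slc16a1 and the gluconeogenic enzymes.

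Both abundant glucose carriers were lower in SRF KO. Slc2a1 encodes GLUT1, the carrier for basal glucose uptake, and Slc2a3 encodes the high-affinity carrier GLUT3. Slc2a1 (chr4:119108711-119137983 in GRCm38, plus strand) was at 502, 483 and 500.4 CPM in SRF KO against 650.4, 567 and 684 CPM in WT. Its 3 SRF KO libraries lay under all WT libraries, and it fell by 0.36 on the log2 scale (SE 0.07, adjusted p = 0.0011). Slc2a3 was at 1214, 1196 and 1189.6 CPM in SRF KO against 1605, 1503 and 1637 CPM in WT, again without overlap, a log2 fold change of -0.40 (SE 0.05, adjusted p = 7.1e-05). Per kilobase of transcript, Slc2a3 was the more abundant of the pair in both groups, at 303 ± 3.19 CPM per kb in SRF KO and 399.6 ± 17.6 per kb in WT (SD, n = 3), against 152 ± 3.23 and 194 ± 18.5 for Slc2a1. The split between them did not separate the groups: Slc2a1 held 32.9% to 33.8% of the family's CPM per kb in SRF KO and 31.4% to 33.6% in WT. The other carriers were low. Slc2a4 (GLUT4, the insulin-responsive carrier) was at 0.743, 1.1 and 0.864 CPM in SRF KO against 1.46, 0.972 and 1.78 CPM in WT, with overlapping groups (log2 fold change -0.65, SE 0.25, adjusted p = 0.056), and it passed with gene entries alone (adjusted p = 0.049), without a filter (adjusted p = 0.042) and without WT replicate 2 (-0.83, adjusted p = 0.0063). Slc2a2 (GLUT2, the carrier of liver and pancreatic beta cells) had 2 counts in every SRF KO library and 0 in every WT library, so both groups were under the limit of 3 counts and no fold is given.

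At hexokinase, which traps glucose in the cell, and at the isomerase that follows it, all 3 members fell. Hexokinase phosphorylates glucose, and the HK1 and HK2 isozymes can bind the outer mitochondrial membrane. Hk1 (chr10:62268855-62379908, minus strand) was at 50, 48.3 and 52.8 CPM in SRF KO against 81.2, 79.2 and 85.4 CPM in WT, a fall of 0.70 (SE 0.06, adjusted p = 1.9e-06). Hk2 was at 419, 406 and 415 CPM in SRF KO against 483, 469.6 and 475 CPM in WT. This fall was smaller, -0.20 (SE 0.05, adjusted p = 0.0037), but the libraries of each group lay so close together that the groups did not overlap. Gpi1 encodes the isomerase that makes fructose 6-phosphate. It was at 493, 462 and 493 CPM in SRF KO against 748, 656 and 761 CPM in WT, a log2 fold change of -0.58 (SE 0.06, adjusted p = 2.1e-05).

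Of the 3 phosphofructokinase isozymes, which catalyse the committed step, the liver type had the largest fall. Pfkl was at 234, 221 and 232 CPM in SRF KO against 346, 269 and 353 CPM in WT. Its WT libraries were uneven, with WT replicate 2 well under the other two, and its log2 fold change was -0.50 (SE 0.09, adjusted p = 0.00078). Pfkm, the muscle type, went from 54.4 ± 3.92 CPM in WT down to 47.4 ± 1.65 CPM in SRF KO (SD, n = 3; log2 fold change -0.20, adjusted p = 0.025), a call lost without SRF KO replicate 2 or 3 or WT replicate 1 or 3. Pfkp, the platelet type, was at 237 ± 10.2 CPM in SRF KO against 260.3 ± 12.9 CPM in WT (log2 fold change -0.14, SE 0.05, adjusted p = 0.062). It did not pass, although its groups did not overlap, and without WT replicate 2 it passed (-0.17, adjusted p = 0.0033).

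The enzymes that set the level of fructose 2,6-bisphosphate, the strongest activator of phosphofructokinase, did not move together. Each PFKFB protein carries both a kinase and a phosphatase activity, in a balance that differs between isozymes. Pfkfb4 (chr9:108991778-109032228, plus strand) was at 5.43, 5.29 and 6.46 CPM in SRF KO against 3.78, 3.46 and 3.24 CPM in WT. It rose by 0.71 on the log2 scale (SE 0.12, adjusted p = 0.00081), and the lowest SRF KO library lay over the highest WT library. Pfkfb3, which favours the kinase reaction, went the other way, from 30.7 ± 0.437 to 26.5 ± 1.09 CPM (SD, n = 3; log2 fold change -0.21, SE 0.06, adjusted p = 0.016), a call lost without SRF KO replicate 2 or 3. Pfkfb2, the heart type, was at 27.9 ± 0.906 CPM in SRF KO against 26 ± 1.11 CPM in WT and did not pass (log2 fold change 0.10, adjusted p = 0.24). Within this family the share of Pfkfb4 in the CPM per kb was 11.3% to 13.8% in SRF KO and 7.19% to 8.08% in WT.

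All 5 members from aldolase to phosphoglycerate kinase fell, with a median of -0.53. Aldolase cuts the sugar into triose phosphates, which triose phosphate isomerase interconverts. Aldoa, the main aldolase here, was at 1132, 1048 and 1175 CPM in SRF KO against 1647, 1498 and 1685 CPM in WT (log2 fold change -0.53, SE 0.06, adjusted p = 4e-05). Aldoc, the brain type (chr11:78322968-78327781, plus strand), had the next largest fall after Ldhb of all members: it was at 13.6, 11.5 and 12.5 CPM in SRF KO against 27.4, 25.1 and 27.6 CPM in WT. Its level in SRF KO was under that of WT in every library, with a log2 fold change of -1.09 (SE 0.08, adjusted p = 1.3e-06). Tpi1, the isomerase, was at 289.9, 284 and 287 CPM in SRF KO against 449, 415 and 452 CPM in WT. Its SRF KO libraries differed little among themselves, and it fell by 0.61 (SE 0.05, adjusted p = 2.4e-06).

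The enzymes that oxidise and then harvest the triose were also lower. Pgk1, which makes the first ATP of the pathway, was at 809, 848 and 816 CPM in SRF KO against 1215, 1165 and 1143 CPM in WT (log2 fold change -0.51, SE 0.05, adjusted p = 8e-06). Gapdh, often used as a reference gene for expression, was at 2825, 2534 and 2849 CPM in SRF KO against 3241, 2868 and 3365 CPM in WT. Here WT replicate 2 lay only just over the highest SRF KO library, and the log2 fold change was -0.21 (SE 0.07, adjusted p = 0.031). This call was lost without any one library other than WT replicate 2, with an adjusted p of 0.13 without SRF KO replicate 2. Both genes share sequence with others. Of the 100-base stretches in the longest coding transcript of Gapdh, 78% also occur in transcripts of 86 other genes. For Pgk1 it was 67%, in 3 other genes, so reads may have been shared with those genes.

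In the last steps to pyruvate, the abundant isozyme of each enzyme fell, and its minor isozymes did not pass. Pgam1, the phosphoglycerate mutase of most tissues, was at 834, 831 and 843 CPM in SRF KO against 999.6, 930.4 and 1016 CPM in WT (log2 fold change -0.23, SE 0.05, adjusted p = 0.0031). Eno1, the common enolase, was at 867, 826 and 861 CPM in SRF KO against 1146, 1044 and 1191 CPM in WT (log2 fold change -0.40, SE 0.06, adjusted p = 0.00017). Pkm, which encodes the pyruvate kinases M1 and M2, was at 2922, 2836 and 2871 CPM in SRF KO against 3521, 3235 and 3581 CPM in WT (log2 fold change -0.26, SE 0.05, adjusted p = 0.0022). None of these 3 genes had overlapping groups, whereas the muscle mutase Pgam2, the neuronal enolase Eno2 and the muscle enolase Eno3 overlapped. Their means were at most 9.25 CPM in either group, and their log2 fold changes were -0.15, -0.21 and -0.10 (adjusted p = 0.54, 0.15 and 0.50). Eno2 passed without WT replicate 2 (-0.29, adjusted p = 0.041). Part of the sequence of Eno1 (59% of its 100-base stretches), Pgam1 (39.7%) and Pkm (9.82%) occurs in other genes, and the counts do not separate the M1 and M2 forms of Pkm.

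**Figure D3:**
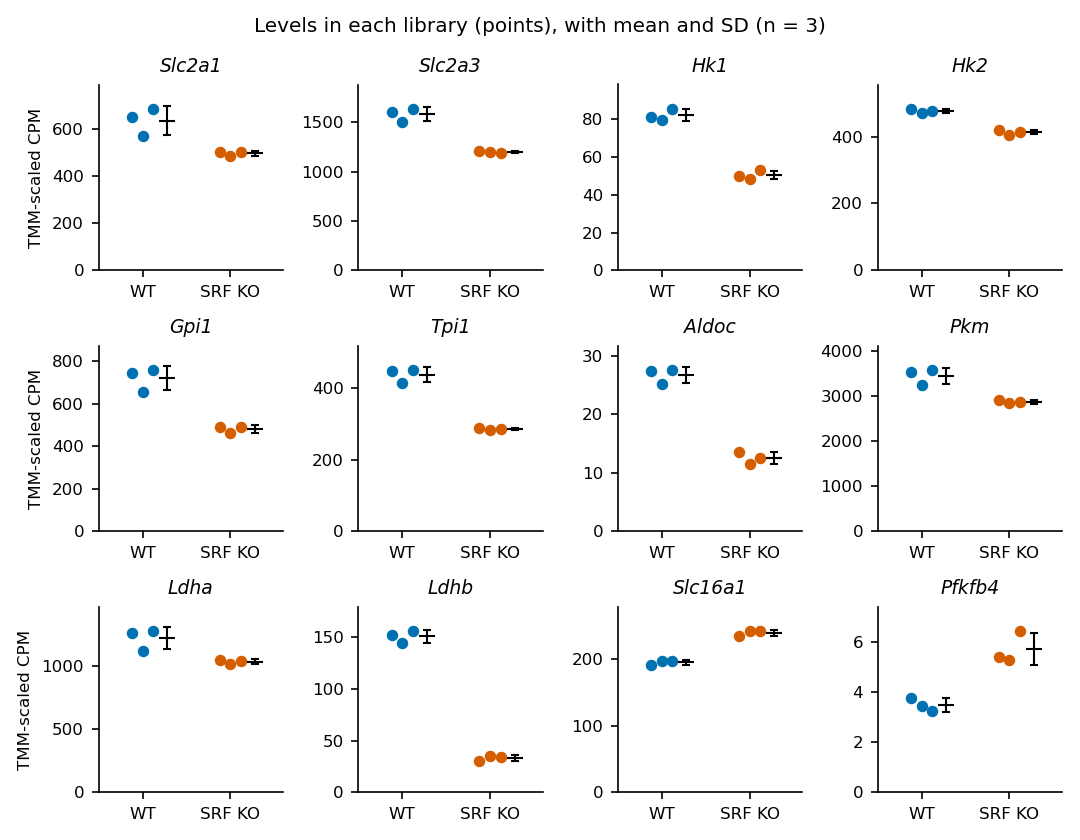
TMM-scaled CPM of 12 members in each library (points), with the mean and SD of each group (n = 3) beside them, on axes that start at 0. In every panel the SRF KO points lie apart from the WT points, under them except for Slc16a1 and Pfkfb4, and the gap is widest for Ldhb.

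The largest change of the pathway was at lactate dehydrogenase. The enzyme is a tetramer of A and B subunits: the A subunit favours the making of lactate and the B subunit the making of pyruvate from lactate. Ldhb (chr6:142490249-142507957, minus strand) was counted 814, 938 and 999 times in SRF KO against 5502, 3699 and 4461 times in WT. That is 30.3, 35.4 and 34.5 CPM against 152, 144 and 156 CPM, so its mean in SRF KO was 22.2% of that in WT. The log2 fold change was -2.17 (SE 0.07, adjusted p = 5.6e-10). Ldha was at 1047, 1010.2 and 1035 CPM in SRF KO against 1256, 1117 and 1274 CPM in WT, a fall of 0.24 (SE 0.06, adjusted p = 0.0061). Both subunits were thus lower, by very different amounts. The ratio of Ldha counts to Ldhb counts, which needs no scaling between libraries, was 34.6, 28.5 and 30 in SRF KO and 8.27, 7.77 and 8.19 in WT.

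Other genes around Ldhb did not share its fall. Among the nearest tested genes on either side, Golt1b was slightly higher (log2 fold change 0.16, adjusted p = 0.021), Cmas was slightly lower (-0.24, adjusted p = 0.0044), and Recql and Spx did not pass (0.01 and 0.60). Ldhb shares 8.80% of its 100-base stretches with 1 other gene, and its exons overlap no other gene.

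Lactate leaves and enters cells with a proton through the monocarboxylate carriers, and the pair measured moved in opposite directions. Slc16a1 (MCT1, chr3:104638668-104658462, plus strand) was at 235, 243 and 242 CPM in SRF KO against 191, 198 and 197 CPM in WT, a rise of 0.30 (SE 0.05, adjusted p = 0.00033). It was the only member above 100 CPM that rose, and its groups were far apart relative to their spread. Slc16a3 (MCT4, the carrier of strongly glycolytic cells) was at 87.3, 82.3 and 88.2 CPM in SRF KO against 114, 91.3 and 121 CPM in WT, a fall of 0.34 (SE 0.09, adjusted p = 0.0081). The ratio of Slc16a1 counts to Slc16a3 counts was 2.7, 2.95 and 2.75 in SRF KO and 1.67, 2.17 and 1.63 in WT, with WT replicate 2 closest to SRF KO. Bsg, the chaperone that brings both carriers to the membrane, was at 374 ± 15.6 CPM in SRF KO against 339 ± 0.744 CPM in WT (SD, n = 3; log2 fold change 0.14, adjusted p = 0.038).

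At the gate from pyruvate into the mitochondrial oxidation pathway, a subunit of the enzyme and all 4 of its inhibitory kinases were lower. Pyruvate dehydrogenase kinases phosphorylate the E1 alpha subunit and so switch the complex off. Pdk4 was at 13, 14.7 and 13.9 CPM in SRF KO against 20.6, 22.5 and 20.9 CPM in WT (log2 fold change -0.62, SE 0.08, adjusted p = 6.4e-05). Pdk2 was at 5.24, 4.46 and 4.63 CPM in SRF KO against 7.29, 6.45 and 8.3 CPM in WT (log2 fold change -0.62, SE 0.12, adjusted p = 0.0015). Pdk3 was at 36.6, 37.5 and 35 CPM in SRF KO against 44.9, 53.9 and 46.5 CPM in WT (log2 fold change -0.41, SE 0.07, adjusted p = 0.00091). Pdk1, the most abundant of the 4 per kilobase at 52.5 CPM per kb in SRF KO and 57.4 in WT, had the smallest fall (-0.13, SE 0.05, adjusted p = 0.041). That call was lost with DESeq2 (adjusted p = 0.078), with other scaling or no filter, and without WT replicate 1 or any one SRF KO library.

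Of the pyruvate dehydrogenase subunits measured, Pdha1, the E1 alpha target of those kinases, was at 224, 228 and 225 CPM in SRF KO against 278, 298 and 279.8 CPM in WT. Its groups were well apart, with a log2 fold change of -0.34 (SE 0.05, adjusted p = 0.00018). Pdhb, the E1 beta partner, was at 159, 164 and 150.4 CPM in SRF KO against 168, 178 and 166 CPM in WT. Its difference of -0.11 (SE 0.05, adjusted p = 0.11) did not pass, although the groups did not overlap.

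The enzymes particular to glucose synthesis were low or mixed. Fructose bisphosphatase opposes phosphofructokinase, and its muscle form Fbp2 was at 1.41, 1.1 and 1.07 CPM in SRF KO against 0.525, 0.544 and 0.523 CPM in WT. It rose by 1.16 on the log2 scale (SE 0.23, adjusted p = 0.0016), from 14 to 19 counts per WT library to 29 to 38 counts per SRF KO library. The liver form Fbp1 had at most 17 counts in any library and overlapping groups (log2 fold change 0.72, SE 0.52, adjusted p = 0.30). Pck2, the mitochondrial phosphoenolpyruvate carboxykinase, was at 51.1, 52.2 and 52.6 CPM in SRF KO against 61.1, 53.1 and 61.6 CPM in WT. Its fall of 0.17 (SE 0.06, adjusted p = 0.045) was lost with DESeq2 (adjusted p = 0.075) and without any one library other than WT replicate 2. The cytosolic form Pck1 had 0 to 4 counts in each library.

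Because isozymes fell by different amounts, their proportions differed between the groups. The share of each isozyme in the summed CPM per kb of its family was computed within each library, with the longest coding transcript as its length, so the shares depend on that length while the count ratios above do not. Ldhb made up 3.87%, 4.65% and 4.44% of lactate dehydrogenase in SRF KO and 14.4%, 15.2% and 14.5% in WT. Hk1 made up 13.3%, 13.3% and 14.1% of the hexokinase pair in SRF KO and 17.8%, 17.9% and 18.8% in WT, leaving Hk2 with the greater share in every library. Pfkl went from 48.5% to 53.1% of phosphofructokinase in WT to 44.4% to 46.8% in SRF KO, and Pfkp from 36% to 39.8% in WT to 41% to 43.5% in SRF KO. Among the kinases, Pdk1 held 68.8% to 69.8% in SRF KO and 62.8% to 65.6% in WT, and Pdk4 4.96% to 5.46% in SRF KO and 6.7% to 6.9% in WT. Aldoc was a small part of aldolase in both groups, 0.62% ± 0.0396 in SRF KO against 0.913% ± 0.0103 in WT (SD, n = 3). These ranges did not overlap, whereas those of Slc2a1, Pgam1 and Pck2 within their families did.

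**Figure D4:**
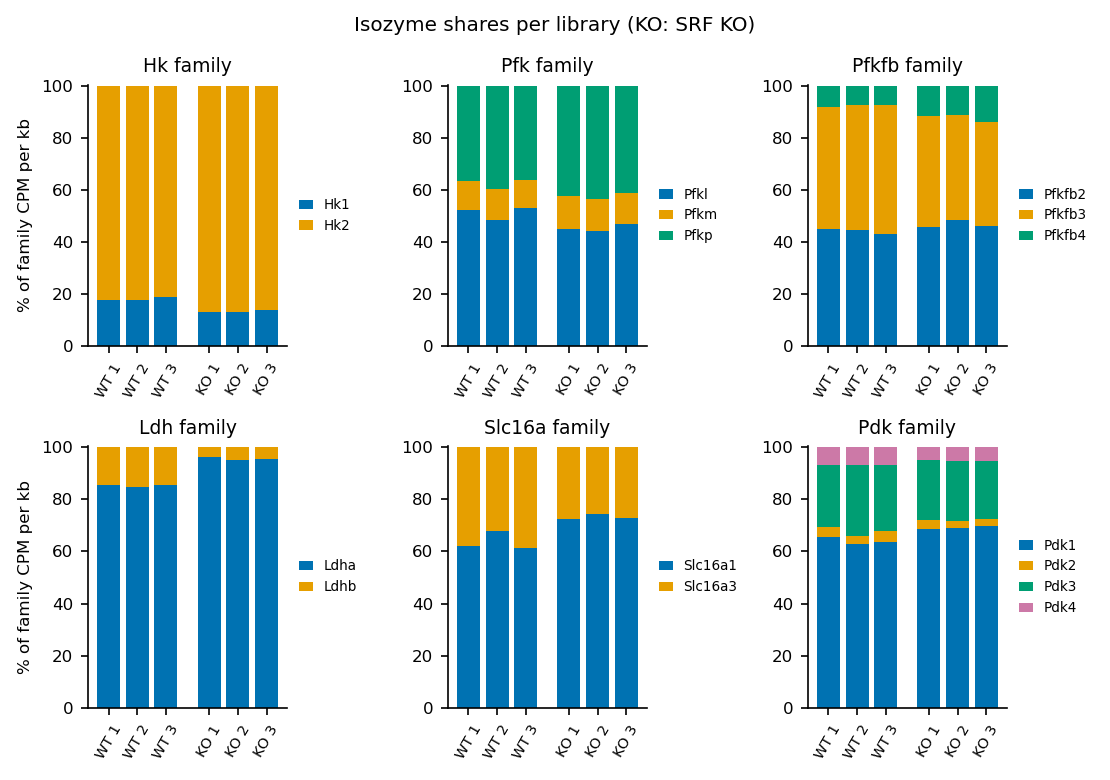
Stacked bars give the percent of each family's summed CPM per kb held by each isozyme, 1 bar per library, for 6 families. The Ldhb band shrinks from about 14.7% of the bar in WT to about 4.32% in SRF KO, and the Hk1, Pfkl, Pfkfb3 and Slc16a3 bands are narrower in each SRF KO bar than in each WT bar.

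The start sites of these genes were read for known motifs, since many glycolytic genes are textbook targets of the hypoxia-inducible factors (HIF), whose core site is ACGTG or GCGTG, and of MYC, which binds the E-box CACGTG. RefSeq gave 52 promoters for 36 of the 38 members (all but Slc2a3 and Slc2a4) in GRCm38.p6, and the 250 bases before each start were searched on both strands. ACGTG was found in 20 of the 52, or 38.462%, against 16.572% of 32851 promoters of all genes. GCGTG, the other HIF core, was found in 51.923% against 28.157%. CACGTG, which holds ACGTG on both strands, was found in 13.462% against 6.021%. The CArG box, the SRF site, was found in 0 of the 52, against 1.467% of all promoters. Promoters of the same gene can overlap, so a site can be counted more than once, as for ACGTG in Aldoa. The members' promoters were not matched to others of like base composition, so whether they hold more sites than such promoters was not tested. A match is a run of letters and does not show binding, and no match says only that the letters are not in this window.

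Part of the window is shown for 4 members: the subunit pair Ldha and Ldhb, which fell by very different amounts, Pgk1 as a member that fell, and Slc16a1 as a member that rose. Capitals mark ACGTG and GCGTG on either strand (CACGT and CACGC where they lie on the opposite strand), and each is printed 5′ to 3′ on the strand of its gene.
Ldha, chr7:46845644-46845803, plus strand: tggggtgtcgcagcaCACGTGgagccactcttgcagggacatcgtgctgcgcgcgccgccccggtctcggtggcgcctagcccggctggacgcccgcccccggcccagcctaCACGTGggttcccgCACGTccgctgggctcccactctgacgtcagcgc
Ldhb, chr6:142507958-142508117, minus strand: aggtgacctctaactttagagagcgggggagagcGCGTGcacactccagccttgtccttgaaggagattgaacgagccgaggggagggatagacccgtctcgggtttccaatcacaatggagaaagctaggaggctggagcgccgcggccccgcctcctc
Pgk1, chrX:106186940-106187099, plus strand: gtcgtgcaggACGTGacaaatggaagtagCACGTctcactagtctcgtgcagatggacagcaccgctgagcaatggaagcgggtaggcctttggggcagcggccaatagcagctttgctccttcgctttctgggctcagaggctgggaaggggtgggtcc
Slc16a1, chr3:104638444-104638663, plus strand: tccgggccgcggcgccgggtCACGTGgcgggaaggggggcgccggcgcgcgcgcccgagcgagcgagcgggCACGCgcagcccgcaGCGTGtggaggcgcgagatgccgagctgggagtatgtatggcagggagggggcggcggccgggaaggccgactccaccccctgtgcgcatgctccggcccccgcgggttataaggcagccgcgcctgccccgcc
Counted on both strands, the stretch of Ldha holds 5 ACGTG, among them those in 2 CACGTG boxes, and 0 GCGTG. That of Ldhb holds 0 ACGTG and 1 GCGTG, that of Pgk1 2 ACGTG and 0 GCGTG, and that of Slc16a1 2 of each. RefSeq also gives Ldha another start, whose promoter is not printed. The bases searched before that start hold 0 ACGTG and 1 GCGTG, the same counts as in the stretch of Ldhb. The contrast between Ldha and Ldhb thus depends on which start of Ldha is read. Whether a motif goes with a change was not tested.

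Genes around the pathway were counted in the same fit, from lists beside the 38 members. Other targets of HIF-1, the hypoxia-inducible factor that raises glycolytic genes when oxygen is low, were lower in 12 of 22 tested (54.5%, against 21.3% of all genes) and higher in 3 (13.6%, against 21.2% of all genes), with a median of -0.27. Bnip3, a mitophagy receptor, went from 162 ± 8.96 CPM in WT down to 69.7 ± 4.07 CPM in SRF KO (SD, n = 3; log2 fold change -1.22, adjusted p = 3.7e-08). The repressor Bhlhe40 fell by 1.03 (adjusted p = 4.7e-08) and the mitochondrial protein gene Fam162a by 0.56 (adjusted p = 6.7e-06). P4ha2, a collagen prolyl hydroxylase, rose from a mean of 17.7 CPM in WT to a mean of 35.6 CPM in SRF KO (adjusted p = 2.9e-06), and the other higher genes, P4ha1 and Plod2, also modify collagen. Vegfa, the angiogenic factor, did not pass (0.08, adjusted p = 0.22).

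Of 10 HIF subunits and regulators, 4 were lower (40%, against 21.3% of all genes) and 1 was higher (10%, against 21.2%). Without WT replicate 2, 2 were higher. Egln3, a HIF prolyl hydroxylase that is itself a HIF target, went from 96.4 ± 5.54 CPM in WT down to 46.4 ± 0.907 CPM in SRF KO (SD, n = 3; log2 fold change -1.05, adjusted p = 7.2e-08). Hif3a fell by 0.82 (adjusted p = 8.9e-06), Egln1 by 0.41 (adjusted p = 0.00053) and Arnt, the partner of all HIF alpha subunits, by 0.31 (adjusted p = 0.00082). Epas1 (HIF-2 alpha) rose by 0.21 (adjusted p = 0.0073), and Hif1a did not pass (0.12, adjusted p = 0.14). HIF-1 alpha is controlled mainly through its protein, which these RNA data do not measure.

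Other regulators of glycolytic genes were mixed and close to the shares of all genes. Of 21 tested, 4 were higher (19%, against 21.2% of all genes) and 3 lower (14.3%, against 21.3%). Myc, known to raise many glycolytic genes, rose from 41 ± 0.378 CPM in WT to a mean of 87.8 ± 1.39 CPM in SRF KO (SD, n = 3, 2.14-fold, adjusted p = 1.6e-08). Whether this rise bears on the members was not tested. Mycn, a relative of Myc, fell by 0.30 (adjusted p = 0.0025). Esrrb, a nuclear receptor of naive pluripotency and energy metabolism, fell by 0.49 (adjusted p = 7.4e-06). Prkaa2, a catalytic subunit of the energy sensor AMPK, fell by 0.39 (adjusted p = 0.0014). Txnip, which restrains glucose uptake, rose by 0.26 (adjusted p = 0.0015).

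Further enzymes of the same steps that are not among the 38 mostly did not pass. Of 12 tested, 1 was higher and 1 lower (8.33% each, against 21.2% and 21.3% of all genes). The higher one was Hkdc1, a hexokinase-like enzyme, which went from 0.46 ± 0.253 CPM in WT up to 9.61 ± 1.18 CPM in SRF KO (SD, n = 3; log2 fold change 4.36, SE 0.22, adjusted p = 5.3e-08), still far below Hk2. The lower one, Galm (-0.28, adjusted p = 0.012), was lost without SRF KO replicate 1, and 2 were lower without WT replicate 2. Of 7 other sugar carriers tested 3 were lower (Slc2a6, Slc2a5 and Slc2a8) and 3 higher (Slc2a10, Slc2a13 and Slc2a9), the latter reduced to 1 without SRF KO replicate 3 or WT replicate 1. Each count of 3 is 42.9%, against 21.3% lower and 21.2% higher among all genes.

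Branches that draw on or feed glycolysis were counted in the same way, to be read against the same 21.3% lower and 21.2% higher among all genes. Of 20 genes of the TCA cycle, which oxidises the acetyl group from pyruvate, 8 (40%) were lower and 0 higher, or 5 lower without SRF KO replicate 1. The count of 0 higher was the same with DESeq2, and 0 had a positive log2 fold change at an unadjusted p under 0.05 with edgeR. The largest fall was that of Idh2, the mitochondrial NADP isocitrate dehydrogenase, from 126 ± 7.02 to 67.3 ± 2.15 CPM (SD, n = 3; log2 fold change -0.91, adjusted p = 2.4e-07). Of 16 genes of gluconeogenesis and glycogen, 3 were lower and 2 higher, the higher ones down to 0 without SRF KO replicate 1 or WT replicate 1 and to 1 without SRF KO replicate 3. Pgm2, a phosphoglucomutase, fell by 0.98 (adjusted p = 1.3e-07).

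Of 15 genes of the pentose phosphate and hexosamine routes, 5 were lower (33.3%, against 21.3% of all genes) and 3 higher (20%, against 21.2%). These counts moved with single libraries, to 2 lower without SRF KO replicate 1 or 2 or WT replicate 1, to 3 lower without SRF KO replicate 3 or WT replicate 3, and to 1 and 0 higher without SRF KO replicate 1 and WT replicate 1. Gfpt2, which commits fructose 6-phosphate to hexosamines, fell by 0.58 (adjusted p = 1.8e-06), and Ogt, which attaches the product to proteins, by 0.33 (adjusted p = 0.00028), while Gfpt1 rose by 0.20 (adjusted p = 0.0088). Of 15 other genes of lactate and pyruvate handling, 1 was lower (6.67%) and 2 were higher (13.3%), including Bsg. Both shares were under those of all genes, 21.3% lower and 21.2% higher. The higher count was 1 without SRF KO replicate 1 or 3 or WT replicate 1 or 3 and 4 without WT replicate 2, and the lower count was 2 without WT replicate 3.

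The pluripotency markers moved in part with the glycolytic genes, with a median of -0.16. Of 18, 8 were lower (44.4%, against 21.3% of all genes) and 2 higher (11.1%, against 21.2%). Only 1 was higher without SRF KO replicate 1 or 2 or WT replicate 1 or 3. All 18 tested endoderm markers and all 14 tested fibroblast markers were higher, with medians of 3.75 and 1.11. Skeletal and cardiac muscle markers, read because Pgam2, Eno3 and Fbp2 are muscle forms, summed to 28.2 to 29.6 CPM in SRF KO against 34.6 to 35.2 CPM in WT. Of these 12, only 6 could be tested, 3 of them lower (50%, against 21.3% of all genes). That count was 2 with DESeq2 or other scaling, and without any one library other than WT replicate 3.

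**Figure D5:**
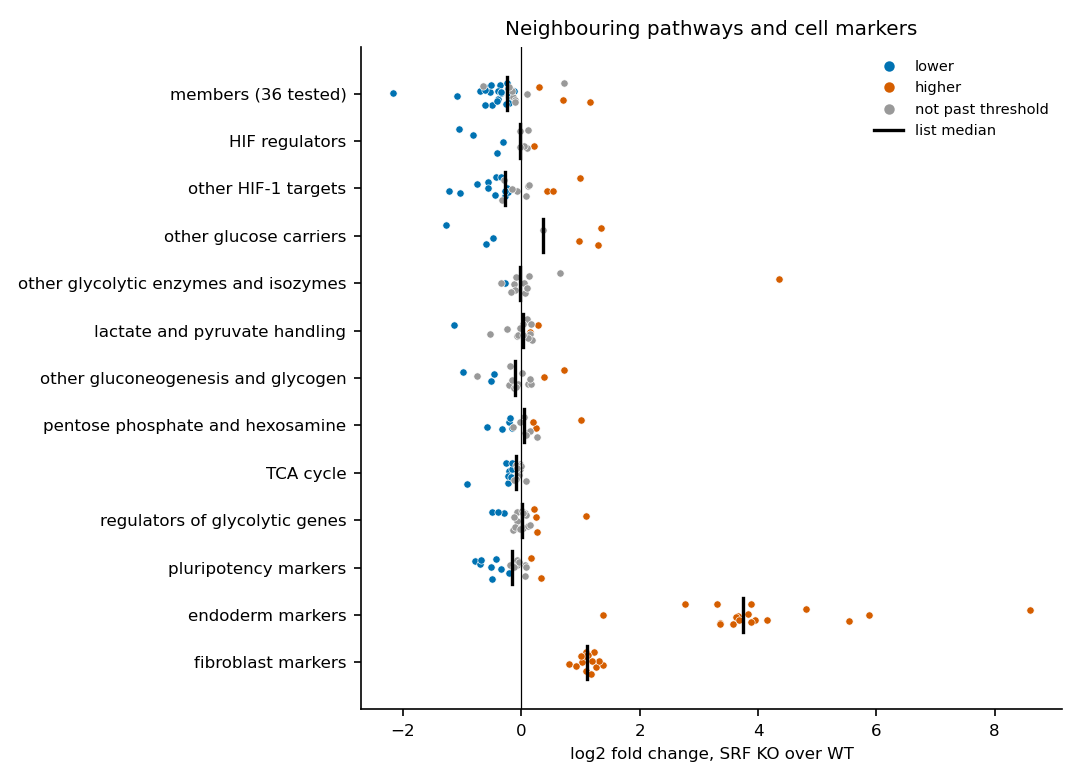
Log2 fold changes (SRF KO over WT) of the tested members and of the tested genes of each list except the muscle markers. Each list has 1 row, with points coloured by call and a black bar at the list median. The members and the other HIF-1 targets lie mostly left of 0 (medians -0.25 and -0.27), most TCA cycle genes lie slightly left of 0 (median -0.09), the sugar carriers lie to both sides, and the endoderm and fibroblast markers lie to the right.

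Shared sequence is a limit of the gene counts, since the counting rule is not given in the sources used here. Of the 38 members, 12 share at least 5% of their sequence or exons with other genes. Of these 12, 9 were lower (75%, against 21.3% of all genes) and 0 higher. Of the other 26, 24 were tested, of which 16 were lower and 3 higher (66.7% and 12.5%, against 21.3% and 21.2% of all genes). Most of the tested members were thus lower in both sets.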

How the data were processed

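Whole-number counts per gene and per transposable element subfamily were deposited by the authors for all 6 libraries, without normalization, as judged from their values. Reads were trimmed of adaptors and low-quality sequence, per the labels' protocols, and mm10 and DESeq2 are named in the submitters' processing notes. The aligner, counter, annotation and use of strand are not given in the sources used here, so overlapping or antisense genes and pseudogene copies cannot be told apart. The 38 members and the lists were chosen with earlier results of these data known. Named genes are all members, Srf, and of each list up to 4 genes with the smallest p or genes given as background.

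All entries were fitted together with edgeR 4.0.16 (R 4.3.3): filterByExpr with a minimum count of 10, TMM scaling, quasi-likelihood test of 3 SRF KO against 3 WT libraries, and Benjamini-Hochberg adjustment over genes and subfamilies, with a threshold of 0.05. The SE is the absolute log2 fold change over the square root of F. The script was tested on simulated data. DESeq2 1.42.0, RLE and upper-quartile factors, no filter, gene entries alone, stricter thresholds, a replicate block and leaving out each library were the alternatives. Positions, transcript lengths and shared sequence come from GENCODE M21 (GRCm38, the assembly of mm10), promoters from RefSeq (GRCm38.p6). Depth was 26321602 to 36680156 counts per library.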

Additional observations from a re-analysis of the deposited data

How the results depend on the processing

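No member that passed the threshold in the main fit or in an alternative fit changed direction between them. For members that passed in neither, the direction was not compared. The number of higher members was 3 under every alternative but a log2 fold change of at least 1, which left 1 higher and 2 lower members and 1077 genes called, fewer by construction. The number of lower members was 25 as reported, 23 with DESeq2 or RLE factors, 24 with upper-quartile factors, 25 without a filter, 26 with gene entries alone, 20 at an adjusted p under 0.01, and 20 to 28 with 1 library left out. It was 16 of 24 tested among members that share under 5% of their sequence, a restriction added after seeing the data that leaves fewer genes. Genes called ranged from 4731 to 7461 with 1 library left out.

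Whether replicate numbers pair the libraries is not settled by these values. Deviations from the group means of libraries with the same number correlated at 0.071, 0.404 and 0.25, so not every pair was over 0.1. Correlations between libraries with different numbers were not computed for comparison. With a replicate block, 28 members were lower, 3 were higher and 7512 genes were called. Over single members and Srf, 26 values lost the threshold (5 genes) and 8 passed it (4 genes). Those that passed under the block were Slc2a4 (adjusted p = 0.049), Pfkp (0.02) and Pdhb (0.026), and the others are named in the report. In the lists beside the members, the block gave 2 higher HIF regulators (1 without it), 3 higher other isozymes (1), 4 higher and 2 lower genes of lactate and pyruvate handling (2 and 1), 5 higher genes of the pentose phosphate and hexosamine routes (3) and 5 lower regulators (3). No filter gave 3 higher other isozymes, and DESeq2 gave 1 higher gene of gluconeogenesis and glycogen in place of 2. At an adjusted p under 0.01, the higher counts were 1 for other carriers, lactate and pyruvate handling, pentose phosphate and hexosamine genes and pluripotency markers and 0 for gluconeogenesis and glycogen, and the lower counts were 0 for other isozymes and 2 for pentose phosphate and hexosamine genes. Members with a mean under about 1 CPM in either group (Slc2a2, Slc2a4, Pck1, Fbp1 and Fbp2) are limited by depth. Of these, Fbp2 was called higher.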
